A study of Mus musculus with 6 samples.

Results

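The genes described here encode the Nrf2 and Keap1 regulators, their classical target enzymes, the thioredoxin and glutathione systems, the glutathione S-transferases and the aldehyde dehydrogenases. They were taken by gene symbol from the count table of all 6 libraries: every Gsta, Gstk, Gstm, Gsto, Gstp, Gstt, Gstz and Aldh gene with a numbered symbol, plus 15 named genes of the pathway. This gave 56 of the 24067 genes in the table, of which 54 had enough counts to be tested. The libraries are RNA-seq of whole tongue with tumour from C57BL/6 mice of about 34 weeks, 3 labelled HuR knock-out (KO) and 3 labelled wild type (WT). HuR is the product of Elavl1 and stabilises messenger RNAs that carry AU-rich elements. Under both labels the animals had been given the carcinogen 4-nitroquinoline 1-oxide (4NQO) over 16 weeks, followed by 12 weeks without it until tumours formed, so every library comes from a carcinogen-treated tongue. The Cre driver, if any, and the deleted exons are not given in these sources. Nothing in the labels says whether a replicate is 1 animal or a pool, and p-values measure only how far these 6 libraries spread, which may be technical.

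Nrf2, encoded by Nfe2l2, is a transcription factor that Keap1 holds back by marking it for degradation. Electrophiles and oxidants modify Keap1, Nrf2 then accumulates, and with small Maf proteins it binds antioxidant response elements near genes that make glutathione, reduce quinones and conjugate reactive compounds. Aldehyde dehydrogenases oxidise the aldehydes that lipid peroxidation and metabolism produce, and some of them make retinoic acid. The carcinogen given here is itself a substrate of quinone reductase and of glutathione conjugation.

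The core of the antioxidant response element, TGACNNNGC, was looked for on both strands of RefSeq promoters in GRCm38.p6, from 250 bases before to 50 bases after each transcript start listed there. Of the 56 genes, 45 had a promoter in that set, some with several starts, and 11 of the 45 (24.4%) held the core. Of all 27025 genes with a promoter there, 14.0% held it, and 12.4% of all 32851 windows did. Among tested genes with a promoter, those with a log2 fold change of KO over WT above 0 held it in 9 of 27 and those below 0 in 2 of 16. A match is a run of letters and not a shown binding site, and no test was made of these shares. The matches are printed 5′ to 3′ on the strand of the gene, with the core or its reverse complement in capitals. A longer stretch before the start, ended at the first annotated base of the gene, is shown for the regulator itself, for the glutathione synthesis subunit Gclm and for Prdx1, whose match alone overlaps the AP-1 letters TGAGTCA.
Nfe2l2, chr2:75704664-75704913, minus strand: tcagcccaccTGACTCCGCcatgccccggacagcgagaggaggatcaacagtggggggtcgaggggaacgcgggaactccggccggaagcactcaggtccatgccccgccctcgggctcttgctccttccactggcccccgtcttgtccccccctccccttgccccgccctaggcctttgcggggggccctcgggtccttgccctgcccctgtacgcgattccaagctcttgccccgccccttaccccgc
Gclm, chr3:122245307-122245486, plus strand: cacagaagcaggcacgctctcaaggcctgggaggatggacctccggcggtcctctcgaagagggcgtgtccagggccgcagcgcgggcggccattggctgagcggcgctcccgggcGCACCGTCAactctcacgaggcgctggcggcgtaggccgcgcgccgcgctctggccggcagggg
Prdx1, chr4:116685349-116685543, plus strand: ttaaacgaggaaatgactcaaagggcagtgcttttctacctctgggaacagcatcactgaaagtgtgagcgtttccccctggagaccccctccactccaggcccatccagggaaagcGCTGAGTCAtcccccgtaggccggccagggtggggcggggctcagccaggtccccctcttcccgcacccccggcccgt
The other matches are shown with 20 bases on each side, or with 10 where they touch an annotated exon of the gene (Srxn1, Mgst1, Gstm5 and Gstm7). The matches of Txnrd1 and Gstm7 lie before a transcript start inside the annotated gene, and that of Srxn1 after the start.
Srxn1, chr2:152105542-152105570, plus strand: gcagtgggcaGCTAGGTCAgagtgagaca
Txnrd1, chr10:82859094-82859142, plus strand: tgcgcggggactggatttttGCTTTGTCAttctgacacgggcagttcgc
Mgst1, chr6:138140461-138140489, plus strand: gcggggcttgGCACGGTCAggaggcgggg
Gsta3, chr1:21240444-21240492, plus strand: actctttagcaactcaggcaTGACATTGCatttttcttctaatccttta
Gstm5, chr3:107895802-107895830, plus strand: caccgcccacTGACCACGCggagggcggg
Gstm7, chr3:107931725-107931753, minus strand: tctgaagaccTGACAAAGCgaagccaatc
Aldh1a2, chr9:71215657-71215705, plus strand: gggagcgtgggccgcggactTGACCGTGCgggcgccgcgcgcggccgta
Aldh9a1, chr1:167349884-167349932, plus strand: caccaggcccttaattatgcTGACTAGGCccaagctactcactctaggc
The windows of Nqo1, Gsta1, Gsta2 and Gsto1 did not hold these letters, which says nothing about sites farther away. Genes without a promoter in that set, among them Hmox1, Gclc, Gsr, Gsta4, Aldh3a1, Aldh1a3 and Aldh2, were not searched.

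Total gene counts were 34754246 to 51520707 in the KO libraries and 29543352 to 51280006 in the WT libraries. CPM here is counts per 1000000 of the TMM-adjusted library size. Elavl1 itself had 65.0, 59.3 and 78.4 CPM in the libraries labelled KO and 61.7, 55.8 and 48.0 CPM in those labelled WT. Its level was thus not lower under the KO label, and every direction given here is one between labels. KO replicates 2 and 3 had 1271 and 1104 CPM of Xist and at most 0.370 CPM of Ddx3y, whereas KO replicate 1 and the WT libraries had 82.5 to 96.4 CPM of Ddx3y, so no WT library read as female. Summed levels of 18 suprabasal keratinocyte genes were 30462 to 42695 CPM in KO and 17367 to 25612 CPM in WT libraries (8 rose, 0 fell), and those of 10 basal ones 13992 to 15661 and 7606 to 13076 CPM (0 passed). Fast muscle genes (16) held 45184 to 63702 CPM in KO and 79897 to 146651 CPM in WT libraries, with 0 higher and 5 lower. Sums were 939 to 1288 and 1470 to 1768 CPM for 8 fibroblast genes (3 fell), 305 to 366 and 429 to 551 CPM for 6 endothelial genes (3 fell), and 186 to 268 and 293 to 598 CPM for 6 adipocyte genes (1 fell). Genes of macrophages and other myeloid cells (8) held 755 to 2039 CPM in KO and 179 to 510 CPM in WT libraries (1 rose). Of these 8, 5 had a log2 fold change of KO over WT above 0 and 3 below, with a median of 0.26. Salivary gland genes (9, of which 2 were at 0 everywhere) held at most 88.0 CPM and liver genes (4, of which 1 was at 0 everywhere) at most 0.238 CPM in any library. Rises and falls are edgeR calls at an adjusted p below 0.05, which 4.81% and 7.43% of all genes tested had. In whole tissue, fewer cells of a type and less RNA per cell cannot be told apart, and the part of these cell types in the results on single genes was not tested beyond the covariate fits given here.

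KO replicate 1 stood apart from the other libraries in these genes. It had the highest level of all 6 libraries in 31 of the 54 tested members (57.4%), against 20.4% of all genes tested. Its level was at least 2 times the mean of KO replicates 2 and 3 in 12 of the 54 (22.2%), against 191 of all 15903 genes tested (1.2%). The 12 included Gclc (4.00 times), Gstm1 (3.65 times), Srxn1 (3.42 times) and Nqo1 (2.96 times). It also had the highest suprabasal sum of the 6 libraries, 42695 CPM beside 41511 and 30462 CPM in KO replicates 2 and 3, and the lowest fast muscle sum, 45184 CPM beside 47494 and 63702 CPM. Its myeloid sum of 755 CPM was the lowest of the KO libraries, beside 2039 and 1165 CPM. The part of these differences in its levels was not tested. WT replicate 3 was the lowest of the 6 in 28 of the 54 members (51.9%), against 32.1% of all genes tested, and it had the highest fast muscle sum. It was the highest of the 6 in 14 of the 54 (25.9%), against 31.9% of all genes tested. Relative to the mean of the other WT libraries it stood at 0.349 times in Gclm, 0.342 in Gpx2, 0.321 in Gsta4 and 0.288 in Cbr3. The log2 fold change without KO replicate 1, or the log2 ratio of mean KO replicates 2 and 3 to mean WT, is therefore given beside the genes that it moves most. It is the only KO library that read as male, so each value without it sets 2 female KO libraries against 3 male WT libraries, in which label and sex cannot be told apart.

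**Figure D1:**
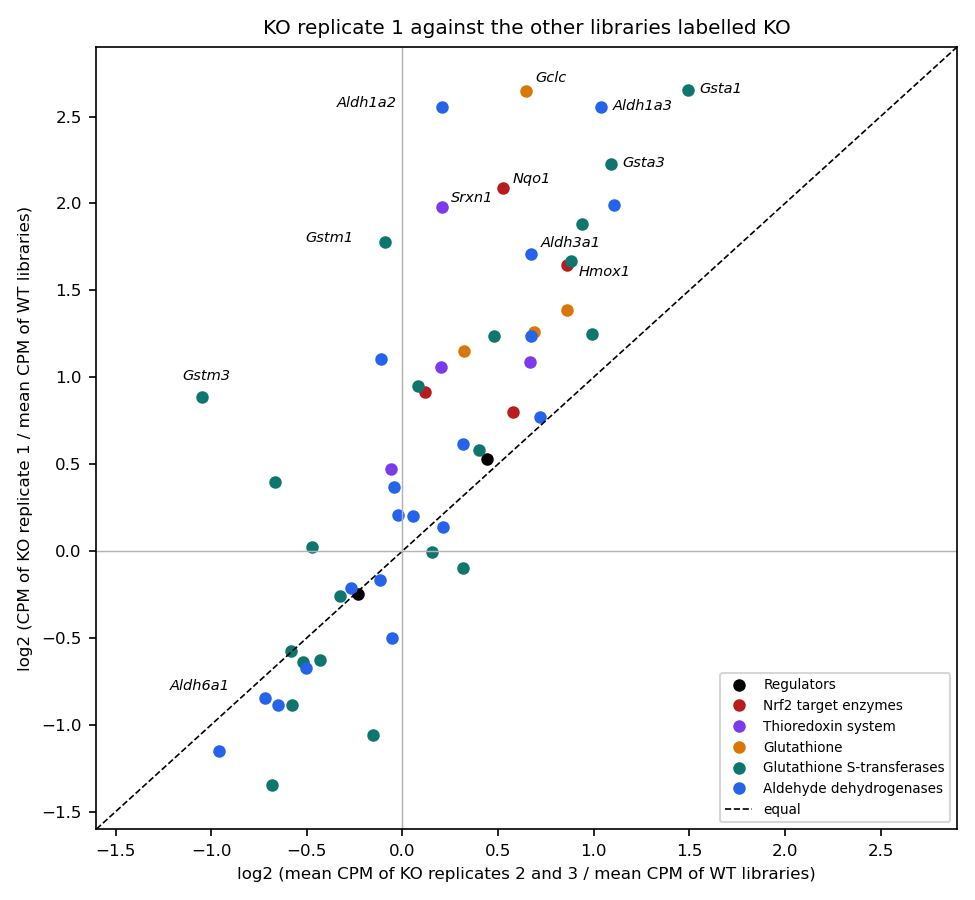
Each point is 1 of the 54 tested genes, coloured by role, with the log2 ratio of the mean of KO replicates 2 and 3 to the WT mean across and that of KO replicate 1 to the WT mean up. Gclc, Srxn1, Nqo1, Gstm1 and Aldh1a2 lie far above the dashed line of equality, and Aldh6a1 lies near it.

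Of the 54 tested genes 2 rose and 2 fell under the KO label (edgeR, adjusted p below 0.05), where 4.81% of all 15903 genes tested rose and 7.43% fell. The members' shares were 3.70% and 3.70%, so by edgeR the share of calls was no larger than that of genes in general. Aldh1a3 and Aldh1a7 rose, and Aldh6a1 and Gstz1 fell. Counting all 54, 36 members were above 0 and 18 below, with a median log2 fold change of 0.43, beside 0.02 over all genes tested. All KO libraries lay above all WT libraries in 17 of the 54 (31.5%, against 22% of all genes tested) and below them in 9 (16.7%, against 22.1%). At an unadjusted p under 0.05 (edgeR), 17 members were higher (31.5%, against 18.2%) and 10 lower (18.5%, against 20.3%). The median was 0.17 without KO replicate 1, with 31 genes above 0 and 23 below. Without WT replicate 3 the median was 0.25, with 38 genes above 0 and 16 below. It was -0.13 with the mean of the fast muscle genes as a covariate, 0.15 with that of the basal keratinocyte genes and 0.69 with sex. The authors' deposited table, a DESeq2 comparison of the same counts, has 13 of the 54 members higher and 8 lower at an adjusted p under 0.05. Of its 15139 genes with an adjusted p, 1875 (12.4%) were higher and 2468 (16.3%) lower. Besides the 4 named above, its higher members were Hmox1, Txn1, Gclm, Mgst1, Gsto1, Gsta2, Gsta3, Gsta4, Aldh3a1, Aldh18a1 and Aldh1l2. Its further lower members were Aldh2, Aldh1b1, Aldh4a1, Gstk1, Gstm7 and Gstt1. Calls, rises, falls and passes of single genes given here are those of edgeR. No call outlived the loss of any library other than WT replicate 1: each of the other 5 fits had 0 members called by edgeR, with 4 to 19 higher and 5 to 9 lower at an unadjusted p under 0.05. At that unadjusted p (edgeR), 1640 to 2495 of all 15967 to 16256 genes tested were higher and 2262 to 2917 lower. Without KO replicate 1, 4 members were higher and 5 lower, beside 1922 and 2262 of 15967 genes. The same fits called at most 1.81% of all genes higher and 2.69% lower, so most calls among other genes were lost too. The fits with the muscle mean, the basal mean or sex called 0 members and 0 of all genes.

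**Figure D2:**
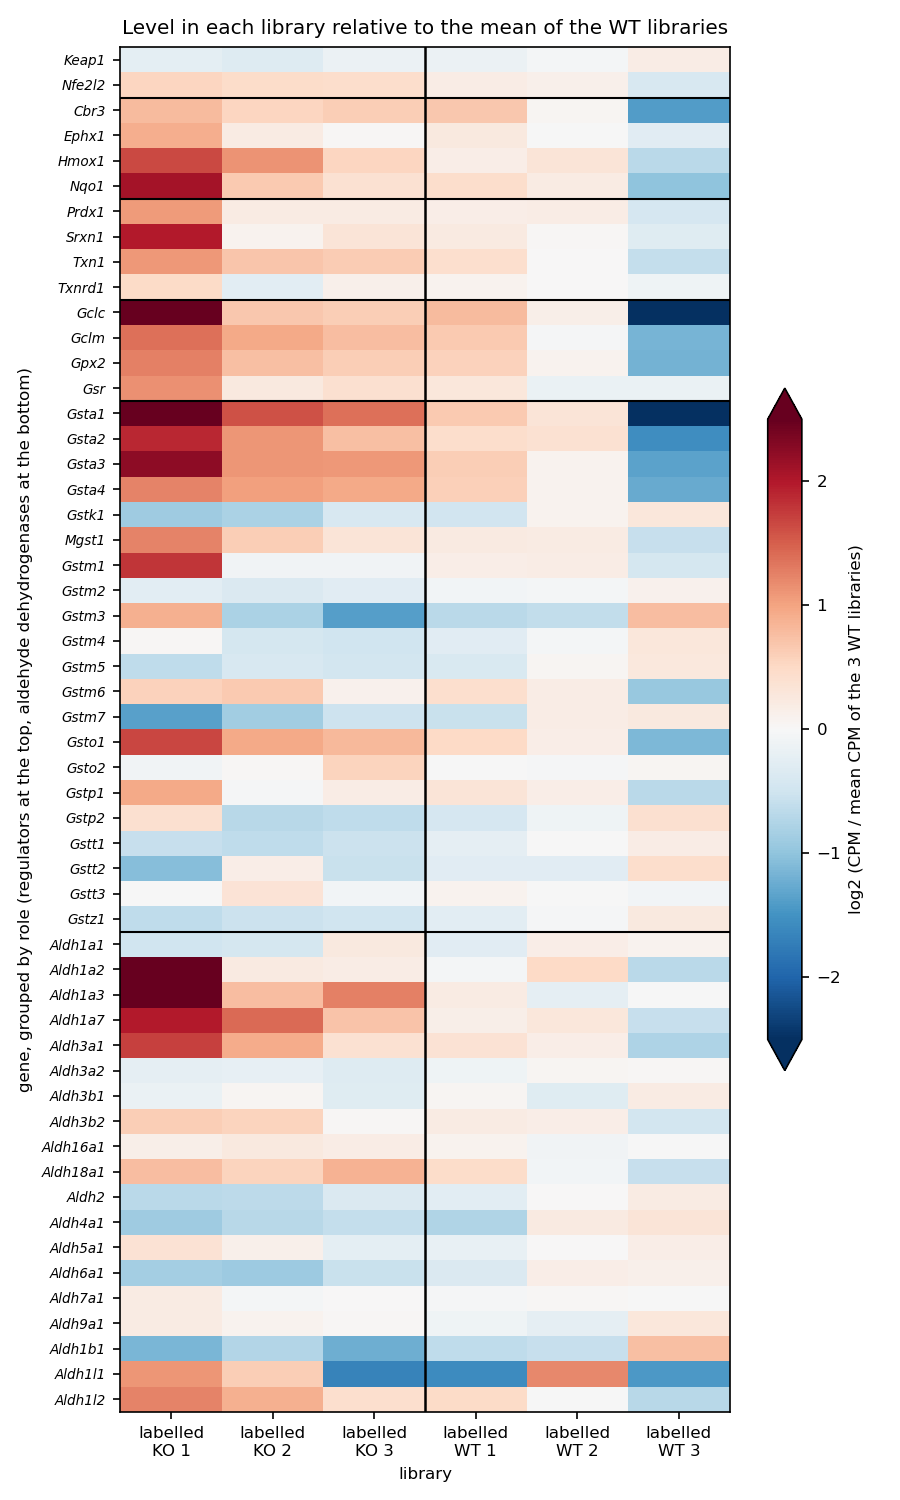
Rows are the 54 tested genes by role and columns the 6 libraries, KO left of WT, and colour is the log2 ratio of the level in CPM to the mean of the WT libraries. KO replicate 1 is dark red and WT replicate 3 blue in Nqo1, Gclc, Gsta1 and Gsta3, while the KO columns of Aldh2, Aldh6a1 and Gstz1 are all blue.

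Levels per kilobase of exon put the aldehyde dehydrogenase of epithelia, Aldh3a1, first among the members under both labels, at 797 ± 375 CPM per kilobase in KO and 370 ± 136 in WT libraries (SD, n = 3 each). It was followed by Gsta4, which conjugates the lipid peroxidation product hydroxynonenal, at 713 ± 79.3 and 337 ± 187, and Gsto1, at 639 ± 216 and 279 ± 138. Txn1 (453 ± 80.1 and 256 ± 86.8) and Gstm1 (358 ± 291 and 202 ± 45.7) came next. In the WT libraries the spread of each of these levels reached that of its neighbour in the order. The lowest of the tested members per kilobase was Gsto2, at 0.351 ± 0.0868 in KO and 0.308 ± 0.00751 in WT libraries. Aldh8a1, with 3 to 6 counts in KO and 3 to 9 in WT libraries, and Gstt4, with 4 to 5 and 0 to 2 counts, were not tested.

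The regulators differed little. Nfe2l2, the gene of Nrf2 (identifier 18024, chromosome 2, 75675513 to 75704663 in GRCm38), had 353, 335 and 331 CPM in the KO libraries and 280, 269 and 187 CPM in the WT libraries. Every KO library lay above every WT library, by a log2 fold change of 0.47 ± 0.18 (SE, 95% interval 0.05 to 0.89, edgeR adjusted p = 0.103), which did not pass. KO replicate 1 was not apart here, and the value without it was 0.44. Keap1, which targets Nrf2 for degradation, had 103, 98.1 and 110 CPM in the KO libraries and 110, 118 and 139 CPM in the WT libraries. Its highest KO library all but touched the lowest WT library, and the log2 fold change of -0.24 ± 0.13 did not pass (edgeR adjusted p = 0.196).

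**Figure D3:**
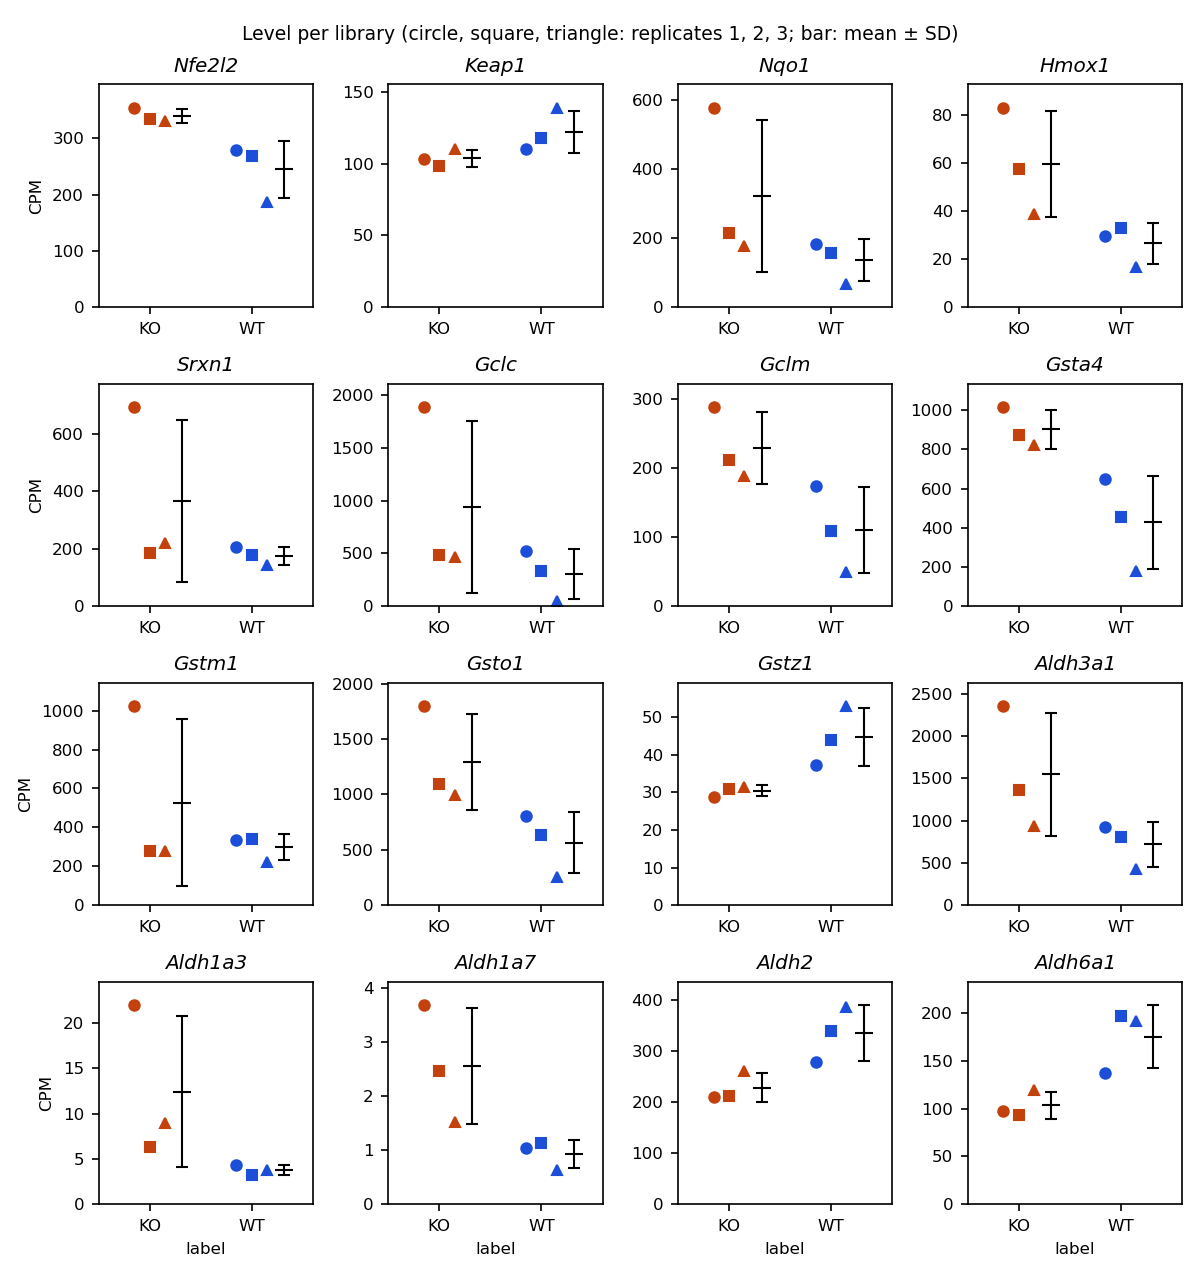
Each panel shows 1 gene, with its level in CPM up and the KO libraries left of the WT libraries; circles, squares and triangles are replicates 1, 2 and 3 of each label, and bars are the mean ± SD of 3 libraries. In Nqo1, Srxn1, Gclc and Gstm1 the circle of KO stands alone above 5 libraries that overlap, whereas in Nfe2l2, Gsta4 and Gsto1 all KO libraries lie above all WT libraries.

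None of the 4 classical Nrf2 target enzymes passed the edgeR test, and all 4 had a log2 fold change above 0. The authors' deposited DESeq2 adjusted p was 0.0040 for Hmox1, and 0.152, 0.209 and 0.210 for Nqo1, Cbr3 and Ephx1. Nqo1, a quinone reductase, had 575, 213 and 176 CPM in the KO libraries and 183, 155 and 66.9 CPM in the WT libraries. The KO and WT libraries overlapped, and the mean rested on KO replicate 1: the log2 fold change was 1.25 ± 0.51 (edgeR adjusted p = 0.115) with it and 0.52 without it. Hmox1, the inducible haem oxygenase, had 82.6, 57.5 and 38.6 CPM in the KO libraries and 29.7, 33.0 and 16.6 CPM in the WT libraries. Here no KO library reached down to a WT one, and with 1.17 ± 0.32 (95% interval 0.42 to 1.92, edgeR adjusted p = 0.0523) it came closest of these enzymes to the threshold; the value was 0.86 without KO replicate 1. Hmox1 is also a gene of macrophages. The summed macrophage and myeloid markers were higher in the KO libraries, but of the 8 genes 5 were above 0 and 3 below. The part of such cells in the level of Hmox1 was not tested. The carbonyl reductase Cbr3 had 125 to 151 CPM in the KO libraries and 32.6 to 138 CPM in the WT libraries (0.65 ± 0.42), and the epoxide hydrolase Ephx1 82.9 to 154 and 66.8 to 97.0 CPM (0.43 ± 0.25). Each of these had overlapping libraries, and Ephx1 stood at 0.12 without KO replicate 1.

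The thioredoxin system reduces oxidised protein thiols, and of its 4 members none passed the edgeR test. Srxn1, sulfiredoxin, which repairs over-oxidised peroxiredoxins, had 693, 186 and 219 CPM in the KO libraries and 206, 178 and 143 CPM in the WT libraries. Apart from KO replicate 1 its libraries lay between 143 and 219 CPM, and the log2 fold change of 1.06 ± 0.47 (edgeR adjusted p = 0.139) was 0.21 without that library. Txn1, thioredoxin, had 572, 436 and 419 CPM in the KO libraries and 360, 271 and 177 CPM in the WT libraries. Its labels did not overlap, with 0.82 ± 0.27 (edgeR adjusted p = 0.0718) and 0.67 without KO replicate 1. The authors' deposited DESeq2 adjusted p for Txn1 was 0.0138. Prdx1, a peroxiredoxin, had 549, 303 and 301 CPM against 295, 298 and 195 CPM, a gap between the labels of a few CPM (0.55 ± 0.28), and it was at 0.20 without KO replicate 1. Txnrd1, the cytosolic thioredoxin reductase, had 207, 124 and 162 CPM against 158, 150 and 139 CPM. It had the smallest fold change of the 15 named genes, 0.14 ± 0.19, with a 95% interval of -0.30 to 0.57, and stood at -0.06 without KO replicate 1.

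The genes that make and recycle glutathione were all above 0 and none passed the edgeR test. Gclc, the catalytic subunit of the enzyme that starts glutathione synthesis (identifier 14629, chromosome 9, 77754535 to 77794489), had 1885, 481 and 462 CPM in the KO libraries and 518, 335 and 50.1 CPM in the WT libraries. KO replicate 1 was 3.64 times as high as the highest of the other 5, and WT replicate 3 was 0.117 times the mean of the other WT libraries. The log2 fold change was accordingly imprecise, at 1.65 ± 0.84 (95% interval -0.29 to 3.59, edgeR adjusted p = 0.182), and 0.65 without KO replicate 1. Gclm, the modifier subunit of the same enzyme, had 288, 211 and 188 CPM in the KO libraries and 173, 108 and 49.0 CPM in the WT libraries. It did not overlap between the labels and depended less on KO replicate 1, with 1.06 ± 0.40 (edgeR adjusted p = 0.0993) and 0.86 without that library. The authors' deposited DESeq2 adjusted p for Gclm was 0.0267. WT replicate 3 was 0.349 times the mean of the other WT libraries, and the value without WT replicate 3 is not given here. Gpx2, the glutathione peroxidase of epithelia, had 478, 337 and 307 CPM against 298, 213 and 87.5 CPM (0.90 ± 0.40), a separation with no pass (edgeR adjusted p = 0.138). Its log2 ratio of mean KO replicates 2 and 3 to mean WT was 0.69. Gsr, which regenerates reduced glutathione, had 109, 58.6 and 64.8 CPM against 60.0, 44.2 and 43.8 CPM (0.65 ± 0.25), with KO replicate 2 below WT replicate 1, and was at 0.32 without KO replicate 1.

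Glutathione S-transferases couple glutathione to electrophiles. Of 21 tested, counting the membrane-bound Mgst1, 0 rose and 1 fell (0% and 4.76%), beside 4.81% and 7.43% of all genes tested. Of the 21, 11 were above 0 and 10 below, and the median log2 fold change was 0.10. The classes stood on different sides of 0, and no class was tested against another. All 4 alpha genes had every KO library above every WT library, which was also so for 22% of all genes tested. Gsta4 had 1015, 873 and 821 CPM in the KO libraries and 649, 454 and 177 CPM in the WT libraries. The KO libraries were close together and the WT libraries wide apart, with a log2 fold change of 1.08 ± 0.41 (edgeR adjusted p = 0.0993) that was 0.99 without KO replicate 1. Gsta3 had 49.7, 22.8 and 22.4 CPM against 16.3, 11.3 and 4.18 CPM (1.57 ± 0.49, edgeR adjusted p = 0.0656). Gsta1 had 42.2, 20.3 and 17.5 CPM against 10.6, 8.42 and 1.09 CPM (1.97 ± 0.67), the largest log2 fold change of all 54. Gsta2 had 25.4, 14.7 and 11.7 CPM against 9.40, 8.92 and 2.34 CPM (1.31 ± 0.49). The log2 ratio of mean KO replicates 2 and 3 to mean WT was 1.09 for Gsta3, 1.49 for Gsta1 and 0.94 for Gsta2. The values of Gsta1 and Gsta2 are uncertain, since 90.5% and 49.8% of the different 50-base stretches of their transcripts also occur in transcripts of another gene, and reads there may have been split or lost. Of the stretches of Gsta2, 36.0% occur in Gsta1, so these genes may not be separate cases.

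Gsto1, an omega enzyme that also reduces dehydroascorbate (identifier 14873, chromosome 19, 47854973 to 47864790), had 1794, 1089 and 992 CPM in the KO libraries and 801, 634 and 257 CPM in the WT libraries. All KO libraries lay above all WT libraries, by a log2 fold change of 1.19 ± 0.42 (edgeR adjusted p = 0.0847), or 0.88 without KO replicate 1. Its neighbour Gsto2 was near 1 CPM throughout, at 0.676 to 1.06 CPM in KO and 0.709 to 0.743 CPM in WT libraries (0.20 ± 0.29, and 0.32 without KO replicate 1). Mgst1, a transferase of microsomal and mitochondrial membranes, had 93.8, 61.2 and 49.4 CPM against 46.7, 46.0 and 26.5 CPM (0.78 ± 0.29, edgeR adjusted p = 0.0921), again without overlap, and was at 0.48 without KO replicate 1.

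The 7 mu genes lie together on chromosome 3, from 107895854 to 108045179, and their values did not all lie on the same side of 0. Gstm1, the most abundant of them, had 1022, 279 and 281 CPM in the KO libraries and 334, 339 and 220 CPM in the WT libraries. KO replicate 1 stood alone and the other 5 libraries were mixed, so the log2 fold change was 0.83 ± 0.50 (edgeR adjusted p = 0.251) with that library and -0.09 without it. Gstm2, Gstm5 and Gstm7 were below 0, at -0.30 ± 0.11, -0.49 ± 0.17 and -0.87 ± 0.28, and Gstm4 was at -0.29 ± 0.20. Of these Gstm7 had 3.99, 5.58 and 7.08 CPM in the KO libraries and 6.94, 11.5 and 12.0 CPM in the WT libraries, with KO replicate 1 the lowest of all. Gstm6 stood at 0.45 ± 0.33, and Gstm3, at 0.245 to 1.18 CPM in KO and 0.401 to 1.09 CPM in WT libraries, at -0.04 ± 0.66. Without KO replicate 1 Gstm3 was at -1.01 and Gstm4 at -0.47. Some 28.8% of the 50-base stretches of Gstm3 and 18.9% of those of Gstm1 occur in another gene's transcripts.

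Gstz1, the maleylacetoacetate isomerase of tyrosine breakdown (identifier 14874, chromosome 12, 87147161 to 87164723), was the transferase that fell. It had 28.7, 30.9 and 31.6 CPM in the KO libraries and 37.3, 44.1 and 52.9 CPM in the WT libraries. The KO libraries were tight and all below the WT libraries, with a log2 fold change of -0.56 ± 0.15 (95% interval -0.90 to -0.22, edgeR adjusted p = 0.0483), or a fold of 0.680. Without KO replicate 1 the value was -0.52 and the call was lost. Gstt1, a theta enzyme, had 7.34, 7.04 and 7.55 CPM against 9.37, 10.9 and 12.5 CPM and just missed the threshold (-0.58 ± 0.16, edgeR adjusted p = 0.0515). Gstk1, of mitochondria and peroxisomes, had 32.6, 34.8 and 45.8 CPM against 43.2, 64.1 and 72.9 CPM (-0.67 ± 0.22, edgeR adjusted p = 0.0689). Gstt3 (0.10 ± 0.15) and Gstt2 (-0.39 ± 0.34, and -0.15 without KO replicate 1) overlapped between the labels. So did the pi enzyme Gstp1, at 254, 128 and 150 CPM against 165, 148 and 82.7 CPM (0.43 ± 0.32), and Gstp2 (-0.22 ± 0.33), which share 33.7% and 49.1% of their own stretches with each other. Without KO replicate 1 Gstp1 was at 0.08 and Gstp2 at -0.66.

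**Figure D4:**
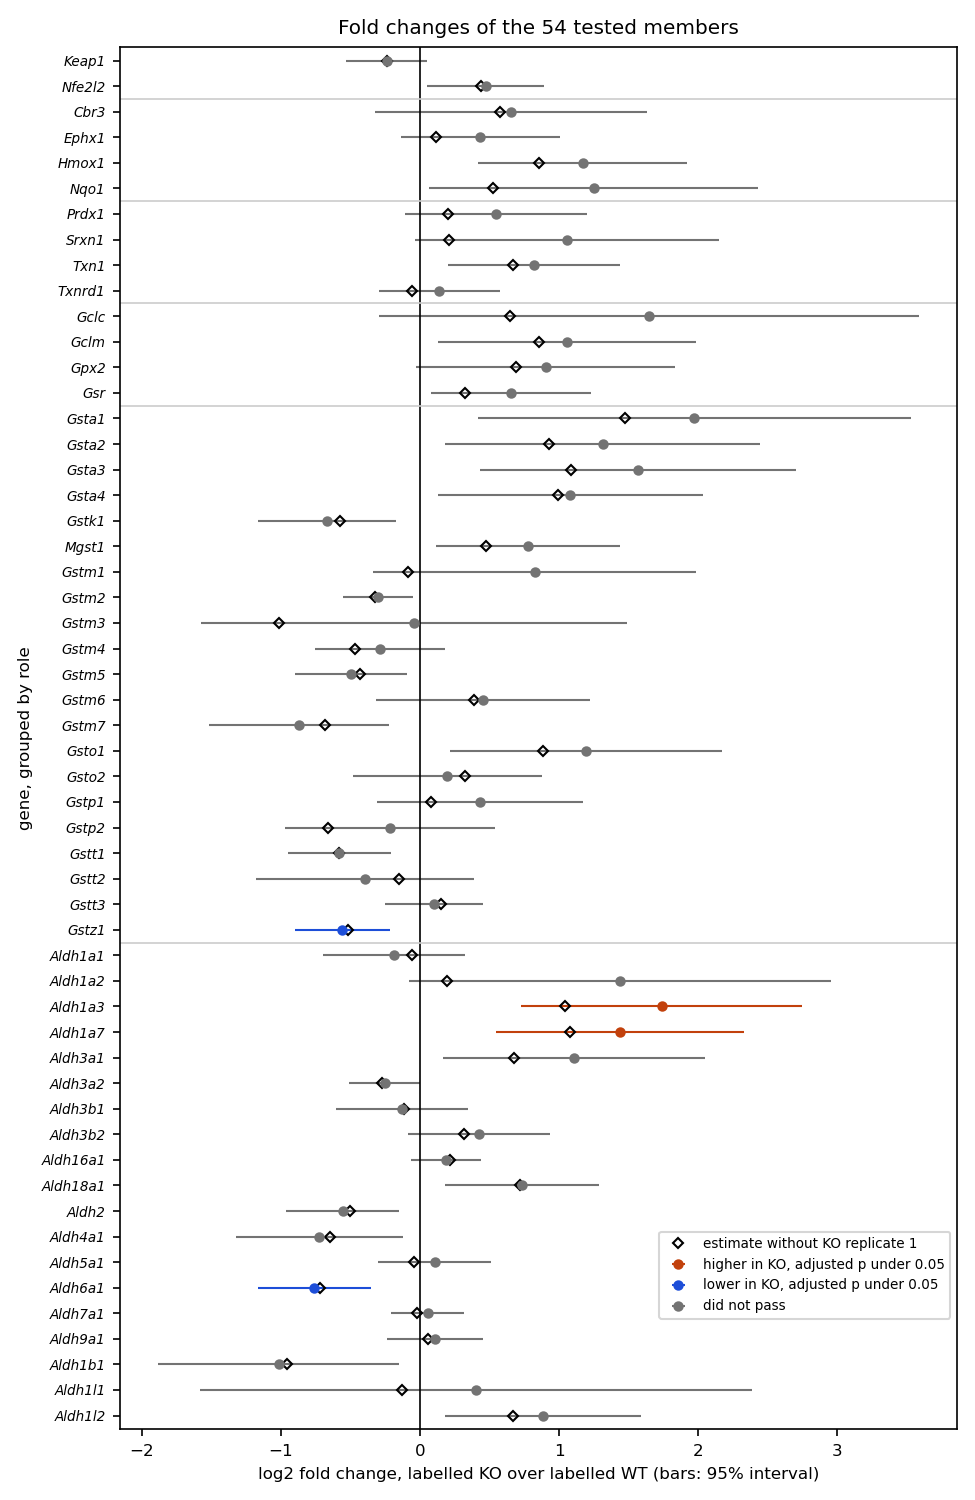
The log2 fold change of KO over WT is plotted across for each of the 54 tested genes, grouped by role from top to bottom, with bars for the 95% interval and open diamonds for the estimate without KO replicate 1. Aldh1a3 and Aldh1a7 in orange and Aldh6a1 and Gstz1 in blue passed the threshold; the diamonds of Gclc, Nqo1, Srxn1, Gstm1 and Aldh1a2 lie far left of their points.

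Among the 19 tested aldehyde dehydrogenases 2 rose and 1 fell (10.5% and 5.26%), beside 4.81% and 7.43% of all genes tested. Their median log2 fold change was 0.11. The 4 Aldh1a genes encode retinaldehyde dehydrogenases and their relatives, and both rises were among them. Aldh1a3, which makes retinoic acid in epithelia (identifier 56847, chromosome 7, 66390892 to 66427477), had 21.9, 6.35 and 9.0 CPM in the KO libraries and 4.30, 3.19 and 3.71 CPM in the WT libraries. All KO libraries exceeded all WT libraries, with a log2 fold change of 1.74 ± 0.44 (95% interval 0.73 to 2.75, edgeR adjusted p = 0.0446), a fold of 3.34. KO replicate 1 was 2.44 times as high as the next library, and without it the value was 1.04 and the call was lost. Aldh1a7, a rodent copy of Aldh1a1, was a low gene with 169, 93 and 81 counts in the KO libraries and 36, 54 and 16 in the WT libraries, or 3.68, 2.46 and 1.53 against 1.03, 1.13 and 0.625 CPM. It rose by 1.44 ± 0.39 (edgeR adjusted p = 0.0497), without overlap, and stood at 1.08 without KO replicate 1, again with the call lost. Aldh1a1, its neighbour on chromosome 19, had 82.8, 86.7 and 139 CPM against 96.2, 132 and 124 CPM, with a log2 fold change of -0.19 ± 0.22 and a 95% interval of -0.70 to 0.32, or -0.06 without KO replicate 1. Aldh1a2, also a retinoic acid synthase, had 37.2, 7.35 and 7.23 CPM in the KO libraries and 6.13, 8.88 and 3.95 CPM in the WT libraries. Only KO replicate 1 was out of the range of the others, at 4.19 times the highest of them, and the value of 1.44 ± 0.66 was 0.20 without it.

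Aldh3a1, an abundant enzyme of cornea and other surface epithelia (identifier 11670, chromosome 11, 61208510 to 61218418), had 2350, 1361 and 931 CPM in the KO libraries and 924, 810 and 421 CPM in the WT libraries. The lowest KO and the highest WT library were 931 and 924 CPM, so the labels only just failed to overlap. Its log2 fold change of 1.11 ± 0.41 (95% interval 0.17 to 2.05, edgeR adjusted p = 0.0922) did not pass and was 0.67 without KO replicate 1. Aldh3a2, the neighbouring gene for fatty aldehyde dehydrogenase, was at 28.6 to 31.0 CPM in KO and 33.6 to 37.4 CPM in WT libraries (-0.25 ± 0.11). Aldh3b2 stood at 0.42 ± 0.22 and Aldh3b1 at -0.13 ± 0.21. Of the stretches of Aldh3b2, 24.2% occur in another gene's transcripts.

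Aldh6a1, the methylmalonate semialdehyde dehydrogenase of valine breakdown in mitochondria (identifier 104776, chromosome 12, 84430717 to 84451024), had the smallest adjusted p of the members. It had 97.5, 93.9 and 120 CPM in the KO libraries and 137, 197 and 192 CPM in the WT libraries. Every KO library lay below every WT library, with a log2 fold change of -0.76 ± 0.17 (95% interval -1.16 to -0.36, edgeR adjusted p = 0.0389), or a fold of 0.591. Without KO replicate 1 the value was -0.72 and the call was lost. Aldh2, the mitochondrial enzyme that clears acetaldehyde, had 210, 212 and 261 CPM against 278, 339 and 387 CPM, also without overlap (-0.56 ± 0.18, edgeR adjusted p = 0.0665). Aldh1b1, a mitochondrial relative, had 6.76, 8.97 and 6.43 CPM against 9.60, 10.1 and 25.2 CPM, where WT replicate 3 was far above the rest (-1.01 ± 0.38). Aldh4a1, of proline breakdown, had 79.1, 90.1 and 96.2 CPM against 86.5, 170 and 182 CPM, with WT replicate 1 among the KO libraries (-0.72 ± 0.26). These 4 mitochondrial genes had values below 0 in a comparison in which fast muscle RNA was also lower under the KO label. With the fast muscle mean as a covariate Aldh6a1 was at -0.17, Aldh2 at -0.045, Aldh1b1 at -0.22 and Aldh4a1 at 0.32. That fit called 0 of all 15903 genes, and the fast muscle sums of the labels do not overlap, so muscle content and label cannot be told apart for these genes.

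Not all mitochondrial members were lower. Aldh18a1, which makes the precursor of proline, had 44.3, 38.2 and 47.0 CPM in the KO libraries and 35.5, 24.7 and 17.4 CPM in the WT libraries. Its labels did not overlap and the value of 0.74 ± 0.24 (edgeR adjusted p = 0.0712) hardly depended on KO replicate 1, at 0.72 without it. Aldh1l2, the mitochondrial formyltetrahydrofolate dehydrogenase, had 116, 90.5 and 65.6 CPM against 67.9, 48.9 and 30.4 CPM (0.88 ± 0.30), with KO replicate 3 below WT replicate 1. For Aldh1l2 the log2 ratio of mean KO replicates 2 and 3 to mean WT was 0.67. Its cytosolic counterpart Aldh1l1 had 49.0, 34.9 and 7.19 CPM against 7.63, 52.3 and 8.40 CPM, high and low libraries under both labels, and its interval of -1.58 to 2.39 holds a large change in either direction; it was at 0.40 with and -0.13 without KO replicate 1. Aldh16a1 (0.19 ± 0.11), Aldh5a1 (0.11 ± 0.18), Aldh9a1 (0.11 ± 0.15) and Aldh7a1 (0.06 ± 0.11) all lay near 0. For Aldh7a1, of lysine breakdown, the 95% interval was -0.21 to 0.32. Without KO replicate 1 Aldh9a1 was at 0.058, Aldh5a1 at -0.045 and Aldh7a1 at -0.024.

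A further 111 genes of the same pathways were counted beside the members, of which 106 were tested. Of these 6 rose and 13 fell (5.66% and 12.3%), beside 4.81% and 7.43% of all genes tested. Their median log2 fold change was 0.14, beside 0.02 over all genes tested. Glrx, glutaredoxin, which removes glutathione from proteins, rose most clearly. It had 173, 130 and 87.8 CPM in the KO libraries and 44.7, 49.0 and 32.7 CPM in the WT libraries (1.62 ± 0.26, edgeR adjusted p = 0.0295). Nfe2l3, a relative of Nrf2, had 10.2, 10.9 and 7.57 CPM in the KO libraries and 4.44, 4.27 and 3.40 CPM in the WT libraries, a rise of 1.23 ± 0.20. Dpp3, a peptidase that competes with Nrf2 for Keap1, rose by 0.61 ± 0.14. The others that rose were the cholesterol sulfotransferase Sult2b1 (0.88 ± 0.17), the retinoic acid binding protein Crabp2 (0.95 ± 0.17) and Txnrd3 (0.62 ± 0.16). The fall with the smallest adjusted p was that of Gpx3, the secreted glutathione peroxidase, with 29.8, 21.1 and 30.6 CPM against 50.3, 66.3 and 64.7 CPM (-1.15 ± 0.18, edgeR adjusted p = 0.0295). Next came the quinone reductase Nqo2 (-1.16 ± 0.20), the aldehyde oxidase Aox1 (-1.23 ± 0.22), the iron exporter Slc40a1 (-0.78 ± 0.16), the haem synthesis enzyme Fech (-0.82 ± 0.17) and Akr1b10 (-0.91 ± 0.20).

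By list, peroxide and thiol reduction had 2 rises and 5 falls among 27 tested genes, the falls being Gpx3, Gpx4, Sod2, Prdx3 and Txnrd2, of which Sod2, Prdx3 and Txnrd2 act in mitochondria. The shares of that list were 7.41% and 18.5%. Nrf2 regulation had 2 and 1 among 15 (13.3% and 6.67%), and conjugation and export 1 and 2 among 17 (5.88% and 11.8%). Aldehyde and retinoid enzymes had 1 and 3 among 21 (4.76% and 14.3%), and iron and haem handling 0 and 2 among 7 (0% and 28.6%). Of all genes tested 4.81% rose and 7.43% fell, and no list was tested against them. Of 6 NADPH supply genes and 13 of glutathione synthesis and turnover none passed, with medians of 0.66 and -0.07. At an unadjusted p under 0.05 (edgeR), 5 and 2 were higher and 0 and 1 lower, where 18.2% of all genes tested were higher and 20.3% lower. The calls among pathway genes too depended on the libraries kept: leaving out each library in turn gave 0 to 28 higher and 0 to 25 lower of the 106 (edgeR). The upper ends were without WT replicate 1, where 17.9% of all genes tested were called higher and 18.1% lower.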

How the data were processed

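Total RNA of 6 tumour-bearing tongue samples, 3 per label, went into TruSeq libraries, per the labels' protocols. The authors deposited raw read counts per gene, whole numbers with no normalisation. Beside them, per the file headers, stand a log2 fold change (WT over KO, so that below 0 means higher in KO) and a p-value and adjusted p-value from the authors' DESeq2 comparison. The submitters' processing notes name HTSeq, DESeq2, hg19 and mm10, without roles. Which aligner, annotation and strand setting were used is not given in the sources used here. Reads of genes that overlap, on either strand, may therefore be mixed. Tables with 4 of the same libraries were not used.

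Counts were fitted with edgeR 4.0.16 in R 4.3.3: filterByExpr (minimum count 10, minimum total 15) left 15903 genes, with TMM scaling, a robust quasi-likelihood test with label as the only term, and Benjamini-Hochberg adjustment over all genes at 0.05. Standard errors were derived as the size of the log2 fold change over the root of F, and the 95% intervals rest on them. At 1 CPM a library held 25.6 to 53.0 counts. Alternatives were DESeq2 1.42.0, limma-voom (limma 3.58.1), other scaling and filtering, each library left out, a replicate block, and the fast muscle mean, basal keratinocyte mean or sex (read from Xist and Ddx3y) as covariate.

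Levels per kilobase use the union of GENCODE M21 exons, coordinates are RefSeq GRCm38, and shared 50-base stretches were counted over GENCODE M21 transcripts; the read length is not stated. Promoters are RefSeq GRCm38.p6. Members, lists and the naming rule (the 15 named genes, every called transferase or aldehyde dehydrogenase, the 12 largest fold changes among these at a mean of at least 1 CPM, the most counted gene of each class, and up to 6 listed pathway genes each way) were chosen with earlier results of these data known.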

Additional observations from a re-analysis of the deposited data

How the results depend on the processing

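Every call among the members depended on the libraries kept. Leaving out each library in turn gave 0 to 12 members higher and 0 to 9 lower, 0 to 28 and 0 to 25 of the other pathway genes, and 0 to 2906 and 0 to 2938 of all genes; the upper ends are without WT replicate 1, where all 4 members called remained so. Without KO replicate 1 there were 0 and 0 members, and 4 and 6 of all genes. The median log2 fold change of the members was 0.17 to 0.57 over these fits. DESeq2 called 14 members higher and 8 lower, 22 and 23 pathway genes, and 1909 and 2472 of all genes. With limma-voom 0 members were higher and 2 lower, beside 6.17% and 8.02% of all genes tested. DESeq2 size factors in edgeR and no filter on low counts gave the same 4 members.

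Deviations of same-numbered libraries from their label's mean had correlations of 0.12, -0.16 and 0.19 for numbers 1, 2 and 3. The last was the highest of any KO and WT pair, whereas KO replicate 1 correlated best with WT replicate 2 at 0.17. So few libraries cannot decide whether the numbers pair anything. With the replicate block there were 18 members higher and 7 lower, 26 pathway genes higher and 18 lower, and 1705 and 2112 of all genes.

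With the fast muscle mean, the basal keratinocyte mean or sex as a covariate edgeR called 0 members, 0 pathway genes and 0 of all genes in either direction; at an unadjusted p under 0.05 these fits had 1, 0 and 21 members higher and 0, 0 and 5 lower, beside 218, 502 and 1672 of all 15903 genes higher and 222, 530 and 1860 lower. No WT library was female, so the fit with sex compares KO replicate 1 with the WT libraries. With the fast muscle mean the members' median reversed to -0.13 and 31 of the 54 log2 fold changes changed sign; among the genes of the naming rule these were, each with an edgeR adjusted p of 1.00: Keap1 0.018, Nqo1 -0.52, Gclc -0.85, Gclm -0.16, Gsr -0.10, Srxn1 -0.35, Txnrd1 -0.13, Prdx1 -0.21, Cbr3 -0.31, Ephx1 -0.42, Mgst1 -0.13, Gpx2 -0.24, Aldh1a2 -0.47, Gsta2 -0.042, Gsto1 -0.0039, Aldh3a1 -0.27, Aldh1l2 -0.24, Gstm7 0.19, Aldh1a1 0.56, Gstk1 0.18, Gstm1 -0.73, Gstp1 -0.43 and Gstt3 -0.084. With the basal mean 9 changed sign, among them Txnrd1 (-0.039), Cbr3 (-0.36) and Gstp1 (-0.13). Over the fits that each leave out 1 library, Txnrd1 was -0.061 (without KO replicate 1) to 0.31, Gstm1 -0.090 (without KO replicate 1) to 1.13 and Gstt3 -0.035 (without KO replicate 2) to 0.18. With sex 5 members changed sign, among them Gstt3 (-0.0051), and the median was 0.69; without KO replicate 1 also 5 did. The cause was not tested. Depth limits Aldh8a1, Gstt4, Gstm3, Gsto2 and Aldh1a7 most, the members with the fewest counts.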
